A study of Mus musculus with 4 samples.

Results

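SHP (small heterodimer partner, Nr0b2) chromatin immunoprecipitation peaks that sit where 2 neighbouring protein-coding genes meet were described. They were taken from the wild-type list by position alone. A peak was kept where its summit, the base of highest signal, lay within 1 kb of an end (start or finish) of at least 2 different protein-coding genes. This gave 624 shared-end peaks, or shared peaks, of 5775 wild-type peaks (10.8%, 95% exact interval 10.02% to 11.6%). Of these, 614 peaks touched 2 genes and 10 touched 3 genes, 1214 genes in all. A further 3420 peaks had the end of a single protein-coding gene within 1 kb, called single-gene peaks here, and 1731 had none.

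Jejunum and ileum came from C57BL/6 wild-type mice and from mice lacking SHP, all 8 to 12 weeks old, fasted for 12 h and then given chow for 4 h. The 4 samples were an SHP immunoprecipitation and an input for each genotype, and per the labels' protocols 3 sets were made, each pooled from 3 mice. Each genotype had a single peak list, without lists of the separate sets, so no value below has a replicate error and no test between genotypes was made. The tissue was bulk intestine, so the cell types behind a peak are not resolved. The knockout list held 7 peaks and was filtered differently. None of the 624 peaks overlapped a knockout peak, while 3 of the 5775 wild-type peaks did. With 7 knockout peaks few overlaps were possible, so this absence says little.

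SHP is an orphan nuclear receptor without a DNA-binding domain. It reaches chromatin through partner transcription factors, such as NR5A2 (LRH-1), and is best known for repression of bile acid synthesis after feeding. Genes that start back to back from opposite strands are called a divergent pair, and the short stretch between them often works as a bidirectional promoter, usually rich in CG dinucleotides and without a TATA box. Tandem neighbours are read in the same direction, so that the finish of the upstream gene faces the start of the next. Convergent neighbours end facing each other. These arrangements make it possible to ask whether a peak shared by 2 genes lies at starts, at finishes or at both.

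The stretches between the 2 starts are shown for divergent pairs among the strongest peaks, for pairs named in textbooks and, with Fig4/Ak9, for a pair picked because it holds the NR5A2 letters. They are RefSeq sequences of GRCm38.p6 (mm10), plus strand, 5′ to 3′. Capitals mark every match, on either strand, to a set of transcription factor motifs. For nuclear receptors these were the NR5A2 letters AAGGTCA. Their last part, AGGTCA, is common to many nuclear receptors and was searched too. The E-box was searched as CACGTG, and its CLEAR-like form, which TFEB is known to bind, as GTCACGTG, so that a match to the longer letters also counts for the shorter ones. General promoter letters were CCGGAAG for ETS factors and AAGATGG for YY1. Those of NF-Y were CCAAT, and those of SP and KLF factors GGGCGG. The cyclic AMP response element, CRE, was searched as TGACGTCA and the TATA box as TATAAA, and the NRF1 site was searched as well. Last came the palindrome TCTCGCGAGA and its core CTCGCGAG. The first is Atp5pb/Wdr77, chr3:105959264-105959497, the strongest of the peaks, with 2 copies of the palindrome. Drap1/AI837181 is at chr19:5424980-5425143, Dolk/Nup188 at chr2:30286355-30286406 with a CLEAR-like match, and Fig4/Ak9 at chr10:41303242-41303431 with an NR5A2 match. Hadha/Hadhb (the 250 bases next to the Hadhb start) is at chr5:30155003-30155252, and Psmb9/Tap1 at chr17:34187331-34187555.
Atp5pb/Wdr77: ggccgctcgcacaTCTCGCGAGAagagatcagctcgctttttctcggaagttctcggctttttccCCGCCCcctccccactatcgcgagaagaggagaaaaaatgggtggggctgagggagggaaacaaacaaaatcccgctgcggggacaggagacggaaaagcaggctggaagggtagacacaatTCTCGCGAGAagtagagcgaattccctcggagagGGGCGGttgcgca
Drap1/AI837181: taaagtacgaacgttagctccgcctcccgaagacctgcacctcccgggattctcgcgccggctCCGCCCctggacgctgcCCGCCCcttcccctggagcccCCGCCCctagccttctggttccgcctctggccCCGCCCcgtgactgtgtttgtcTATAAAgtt
Dolk/Nup188: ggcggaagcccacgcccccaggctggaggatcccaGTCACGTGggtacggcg
Fig4/Ak9: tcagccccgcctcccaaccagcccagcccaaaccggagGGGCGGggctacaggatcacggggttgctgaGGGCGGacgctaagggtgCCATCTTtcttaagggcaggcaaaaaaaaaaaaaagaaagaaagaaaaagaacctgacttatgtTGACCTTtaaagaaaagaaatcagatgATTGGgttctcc
Hadha/Hadhb: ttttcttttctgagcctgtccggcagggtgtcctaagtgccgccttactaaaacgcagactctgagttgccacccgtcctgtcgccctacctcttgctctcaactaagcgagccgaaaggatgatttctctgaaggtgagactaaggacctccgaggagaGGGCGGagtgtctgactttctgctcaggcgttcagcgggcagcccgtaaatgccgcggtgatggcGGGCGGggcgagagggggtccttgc
Psmb9/Tap1: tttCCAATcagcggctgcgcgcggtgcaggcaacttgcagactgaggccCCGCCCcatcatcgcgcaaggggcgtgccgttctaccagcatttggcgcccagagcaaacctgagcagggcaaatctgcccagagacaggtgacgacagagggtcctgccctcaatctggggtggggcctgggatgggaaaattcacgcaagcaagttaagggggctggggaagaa

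The same palindrome also lay beside the summits of other peaks. Its 10 letters are shown in capitals with the 10 bases on each side, plus strand, to let the flanks be compared. Baz2b/Marchf7 is at chr2:60209841-60209870, Lrsam1/Rpl12 at chr2:32961648-32961677, Dis3/Pibf1 at chr14:99099757-99099786, Mthfd2/Mob1a at chr6:83326018-83326047, Tmem209/Ssmem1 at chr6:30509798-30509827 and Ankrd49/Mre11a at chr9:14784650-14784679.
Baz2b/Marchf7: ccgccgcggcTCTCGCGAGAagcgggcgag
Lrsam1/Rpl12: ggccagcggtTCTCGCGAGAgctgagcttt
Dis3/Pibf1: gtgaggtcacTCTCGCGAGAaaacacgaag
Mthfd2/Mob1a: agaagcccggTCTCGCGAGAtcctcttggt
Tmem209/Ssmem1: ggccctctctTCTCGCGAGAgggagagggg
Ankrd49/Mre11a: catcaatggaTCTCGCGAGAagtacggatg
The flanks differ from site to site, while the 10 central letters are by definition the same.

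Most of the shared peaks lay at pairs of starts. The strand of both genes was known for 458 of the peaks at 2 genes that were not nested, and 343 of these (74.9%, exact interval 70.7% to 78.8%) were at divergent pairs. Another 104 (22.7%) were at tandem pairs and 11 (2.40%) at convergent pairs. In 10 peaks 1 gene lay inside the other, and in 146 the strand of at least 1 gene was not given, among them all 8 peaks on chromosome 18. Of the single-gene peaks with a known strand, 2670 of 2749 (97.1%) lay at the gene's start.

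The background for these counts is how many close neighbours there are to share a peak. Over all protein-coding genes, 4810 pairs had some end of 1 gene within 2 kb of some end of the other. This is the most that a summit within 1 kb of both can allow, and 13.1% of these pairs had a shared summit. They include 406 nested pairs, and where bodies overlap the facing ends can lie farther apart than 2 kb. Of 1037 close divergent pairs, 343 had a shared summit, counting a pair once and including pairs within peaks at 3 genes, so the background share was 33.1% (exact interval 30.2% to 36.0%). The share was 11.5% of 921 close tandem pairs (9.52% to 13.7%) and 1.23% of 1061 close convergent pairs (0.654% to 2.09%). The 3 intervals did not overlap. The classes did not follow this order when a summit at any end of either gene was counted: such a summit was found for 38.8% of divergent, 42.1% of tandem and 51.8% of convergent pairs. Among pairs with any summit, it was shared in 85.3% of divergent, 27.3% of tandem and 2.36% of convergent pairs. Geometry favours both orders. Single-gene summits lay mostly at starts, and only divergent pairs have starts that face each other. The starts of a convergent pair lie apart, and each counts as an end at which a summit can fall. How much of the orders this makes up was not tested.

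Distance between the ends sets by construction how easily a summit can be within 1 kb of both. The order of the 3 classes was the same in each range of distance, but the intervals of divergent and tandem pairs overlapped at 100 to under 300 bp, and those of all classes at 1000 bp and more. With 0 to under 100 bp between the ends, 39.9% of 288 divergent, 18.97% of 58 tandem and 2.44% of 82 convergent pairs shared a summit. With 100 to under 300 bp the shares were 31.1% of 196, 26.0% of 100 and 0.980% of 102 pairs. With 300 to under 1000 bp they were 32.99% of 97, 18.1% of 299 and 1.21% of 248 pairs. At 1000 bp and more, 1 of 64 divergent, 3 of 382 tandem and 1 of 249 convergent pairs shared one.

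**Figure D1:**
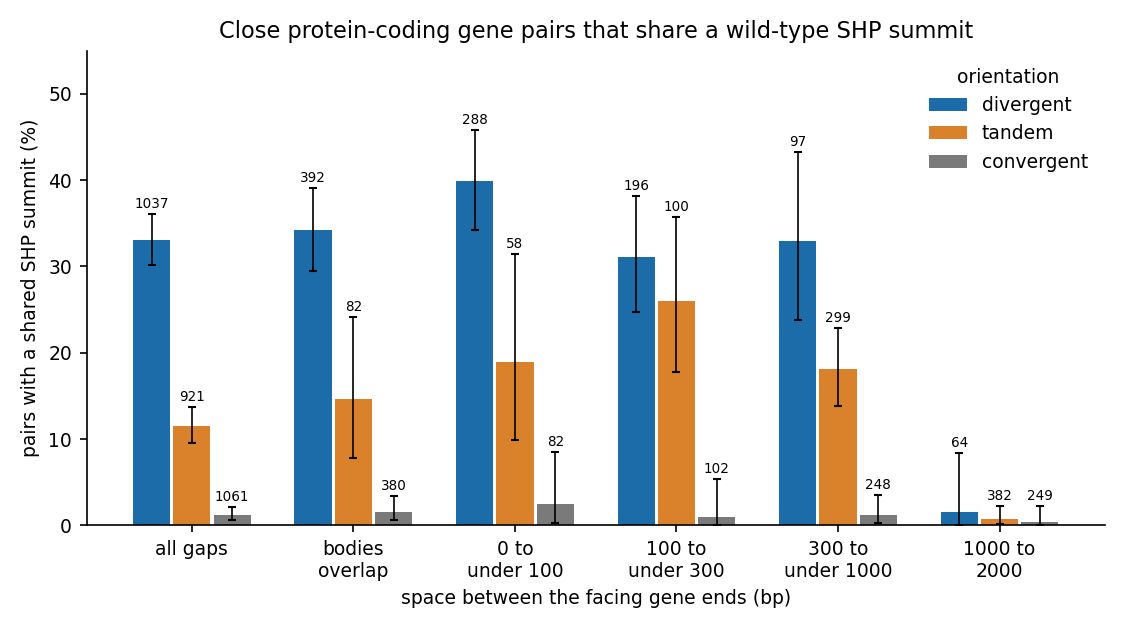
Share of protein-coding gene pairs, with some end of each within 2 kb of the other, that had a wild-type SHP summit within 1 kb of an end of both. Pairs are split by orientation and by space between the facing ends. Bars are shares in percent, whiskers 95% exact intervals, numbers the pairs counted. Divergent pairs reached 33.1% over all gaps, tandem pairs 11.5% and convergent pairs 1.23%.

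At divergent pairs the starts lay close together: the median space between them was 28 bp (interquartile range -200.5 to 112.5 bp, where a negative value means that the gene bodies overlap, as in 132 of the 343). Measured to the nearest end of each gene, the summit was a median of 105 bp from the nearer gene and 282 bp from the farther one. The peak covered an end of both genes in 275 of 343 (80.2%). Both starts were within 1 kb of the summit in 339 of the 343. The plus-strand gene had the nearer end in 179 of 343 (52.2%, 46.8% to 57.6%), so neither strand was preferred beyond counting error. In the 211 peaks at pairs with separate bodies, where a pair with 2 peaks counts for each, the summit lay between the starts in 35 (16.6%) and inside 1 of the genes, downstream of its start, in 176 (83.4%, 77.7% to 88.2%). At these pairs a summit that is not between the starts falls inside 1 of the genes. The space was under 100 bp in 114 of the 211, so a high share is favoured by geometry. For single-gene peaks at a start, the summit lay inside the gene in 2108 of 2670 (79.0%, 77.4% to 80.5%). There the whole upstream side is outside the gene, so the 2 shares are not like measures. The space between starts and the enrichment value showed a Spearman correlation of -0.0422 over these 211 peaks of 1 library, a description only.

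**Figure D2:**
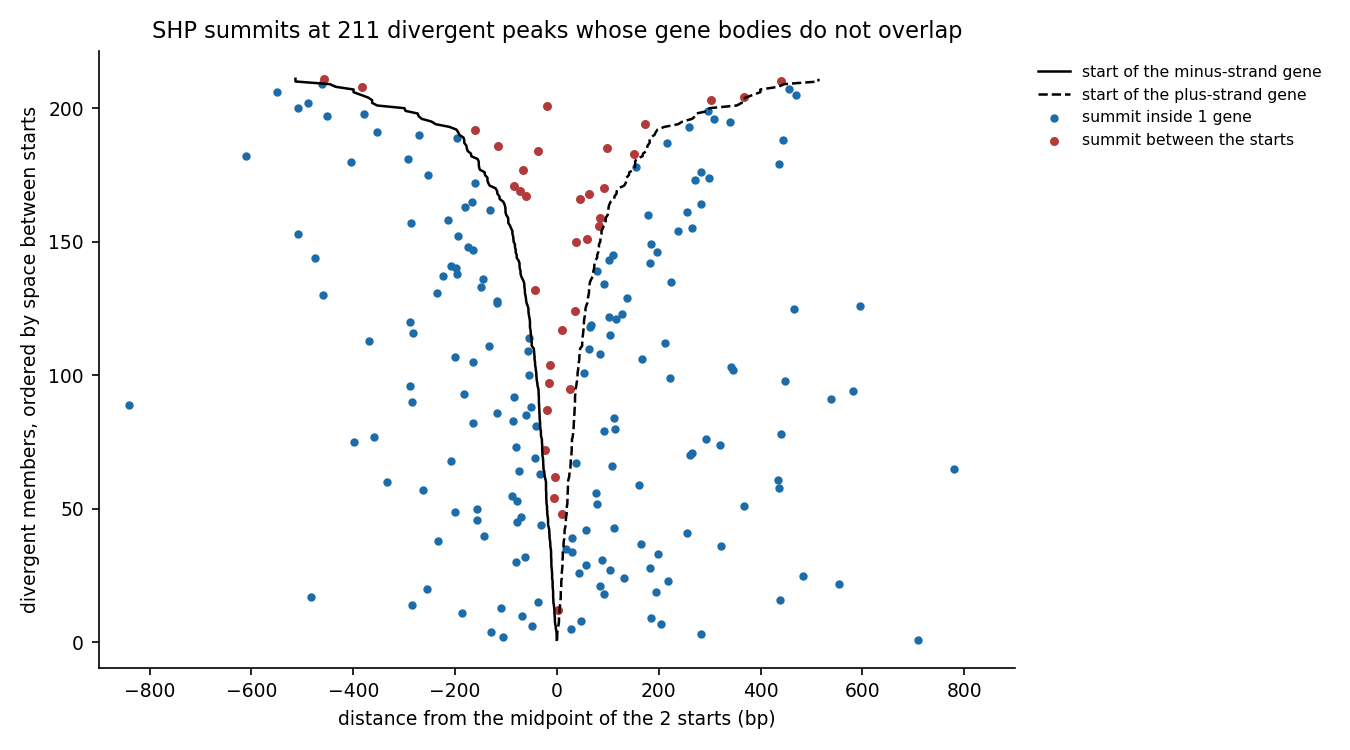
SHP summits at the 211 divergent peaks with separate gene bodies, ordered by the space between the starts (vertical) and placed by distance in bp from the midpoint of the 2 starts (horizontal). Lines mark the starts; red points are the 35 summits between the starts and blue points the 176 inside a gene, which lie on both sides.

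At tandem pairs the summit lay nearer to a start than to a finish. The start of the downstream gene was nearer to the summit than the finish of the upstream gene in 91 of 104 (87.5%, 79.6% to 93.2%). The median distance was 155 bp to the downstream gene and 400.5 bp to the upstream gene, and the peak covered both ends in 34 of 104 (32.7%) only. The strongest tandem peaks were at Osgin1/Necab2 (8.10), Rab4b/Mia (7.65) and Copg2/Tsga13 (7.64), where the number is the authors' deposited enrichment value. Rab4b is a small GTPase of endosomal recycling, and Copg2 a subunit of the COPI vesicle coat.

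The 11 convergent peaks were at pairs whose finishes face each other, and 5 of the 11 had a gene start within 1 kb of the summit as well. The highest were at Dclre1c/Suv39h2 (6.93), Isyna1/Ssbp4 (6.69) and Tmem255b/Gas6 (6.34). Dclre1c encodes Artemis, a nuclease of DNA end joining, Suv39h2 a histone H3 lysine methyltransferase and Isyna1 the enzyme that makes inositol phosphate from glucose phosphate. Among the 10 nested peaks, Poln/Haus3 (8.35), Gspt1/LOC115488671 (7.02) and Gm21992/Rbm14 (6.48) were highest. Gspt1 is a translation termination factor.

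The peaks were of ordinary height for this list. The enrichment value, which is the authors' own number for each peak and whose scale is not stated, had a median of 5.58 (interquartile range 4.89 to 6.31) in the 624 peaks. It was 5.64 in single-gene peaks and 5.65 in all 5775. The deposited −log10 p had a median of 15.4, against 15.2 in single-gene peaks and 14.8 in all. Median widths were 1012 bp, 995 bp and 978 bp. Within the shared peaks, 42 had an enrichment value below 4, 367 a value of 4 to 6, 190 a value of 6 to 8 and 25 a value of 8 or more. Divergent peaks had a median of 5.50 and a width of 1051 bp, tandem peaks 5.69 and 864 bp, and convergent peaks 6.11 and 920 bp. These values were coarse, since 571 of the 624 peaks tied with another peak of the list in both enrichment value and −log10 p.

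**Figure D3:**
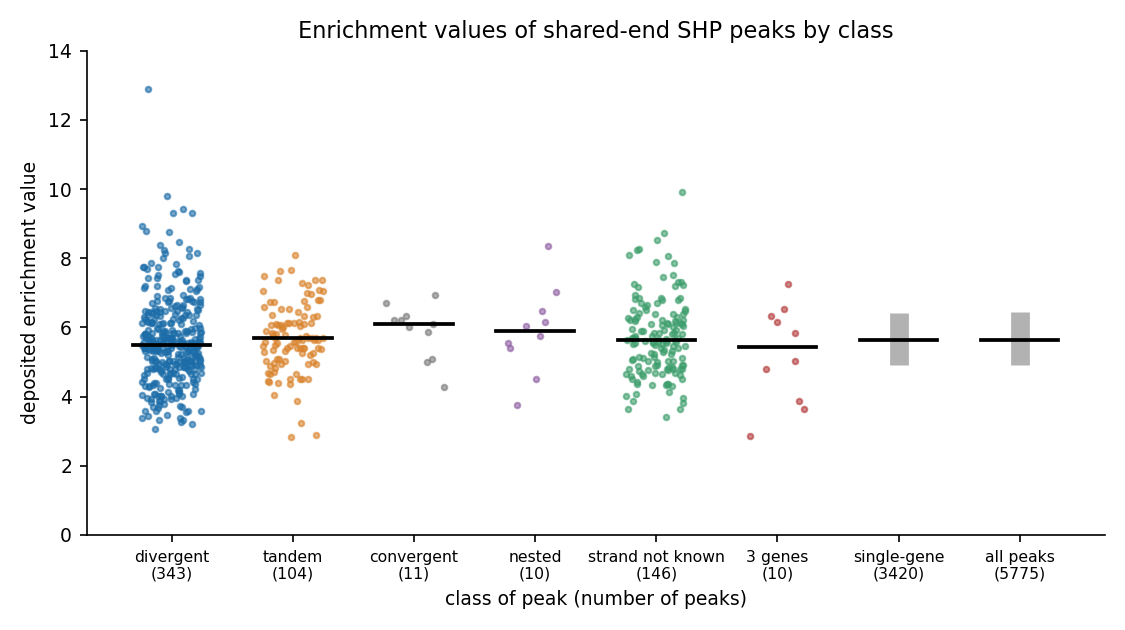
Deposited enrichment value (vertical, no stated scale) of each shared peak by class, with the median as a black line; for the single-gene peaks and all 5775 peaks the median and the interquartile range are drawn. The medians, from 5.44 at 3 genes and 5.50 in divergent peaks to 6.11 in convergent peaks, lie within the interquartile range of all peaks.

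The highest of the shared peaks, with an enrichment value of 12.9 and rank 5 in the whole list, stood between Atp5pb and Wdr77. Atp5pb encodes the b subunit of mitochondrial ATP synthase, and Wdr77 the partner of the arginine methyltransferase PRMT5. Its 1373 bp covered both starts, 44 bp and 191 bp from the summit. Next came Asphd1/Sez6l2 (9.91, strand not known) and then Stxbp4/Cox11 (9.79) and Adprm/Sco1 (9.43), of which Cox11 and Sco1 both encode copper chaperones of cytochrome c oxidase. Their summits lay 27 bp from the Cox11 start and 162 bp from the Sco1 start.

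Transcription regulators followed, with Drap1/AI837181 (9.32), where Drap1 is a subunit of the general repressor NC2, and Baz2b/Marchf7 (9.32), where Baz2b is a bromodomain protein and Marchf7 a ubiquitin ligase. Dolk/Nup188 (8.93) joins dolichol kinase, needed for N-glycosylation, to a nuclear pore scaffold protein. Nubp2/Spsb3 (8.79) holds a factor for cytosolic iron-sulfur cluster assembly, and Gatc/Triap1 (8.76) a subunit of the mitochondrial glutaminyl-tRNA amidotransferase. Washc5/Nsmce2 (8.72) pairs a WASH complex subunit with a SUMO ligase, and Ppp1r1b/Stard3 (8.53) includes a cholesterol transfer protein of late endosomes. The rest of the 15 highest were Lrsam1/Rpl12 (8.46), Srsf2/Mfsd11 (8.39), Poln/Haus3 and Pcyt2/Sirt7 (8.27). Srsf2 is a splicing factor, Pcyt2 an enzyme of phosphatidylethanolamine synthesis and Sirt7 a nuclear deacylase. Of the 100 highest values in the whole list, 12 belonged to shared peaks.

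**Figure D4:**
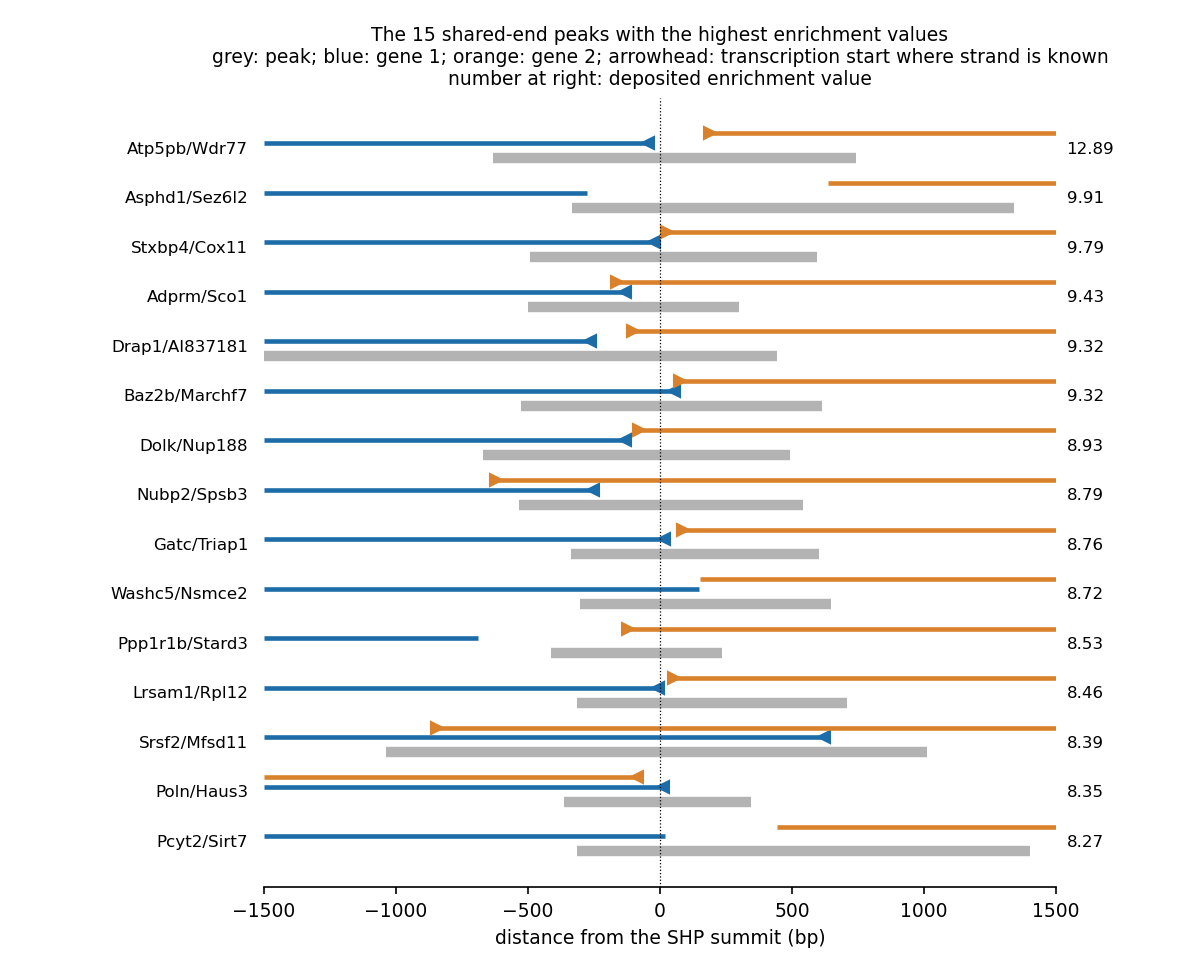
The 15 shared peaks with the highest enrichment values, each centred on its summit (horizontal, bp); grey bars are the peaks, blue and orange bars the genes, arrowheads the starts where the strand was known, and numbers the enrichment values. In 13 of the 15 the peak covers an end of both genes.

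At the edge of the rule, Slbp/Tmem129 (6.73) and Cox14/Gpd1 (6.30) were kept with the second gene 999 bp from the summit. Dhtkd1/Sec61a2 (7.47), with the second gene at 1001 bp, was left out.

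Peaks at 3 genes were few and spread over the range. In order of enrichment value they were Derpc/Chtf8/Utp4 (7.24), Rad17/Taf9/Ak6 (6.54), Topors/Smim27/Ndufb6 (6.32), Hykk/AY074887/Psma4 (6.16), Cyb5d1/Naa38/Tmem88 (5.83), Oplah/Exosc4/Gpaa1 (5.04), Gm45935/Setdb2/Cab39l (4.79), Tbcb/Polr2i/Ovol3 (3.86), Gm27021/Emc8/Cox4i1 (3.63) and Atf5/Nup62/Il4i1b (2.87). Several hold a subunit of a large complex, such as Taf9 of TFIID, Psma4 of the proteasome, Polr2i of RNA polymerase II and Exosc4 of the RNA exosome.

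In 13 pairs, 2 separate peaks met the rule, and 9 of the 13 pairs were divergent. In 7 of these 9 the midpoint of the starts fell between the summits, so that each gene had a summit on its own side. At Ggps1/Arid4b, where Ggps1 makes geranylgeranyl diphosphate, the enrichment values were 5.04 and 7.20 with the summits 700 bp apart. Those of Cep57/Fam76b were 5.91 and 5.98, of Hnrnpa2b1/Cbx3 5.39 and 5.02, of Hnrnpc/Rpgrip1 6.63 and 5.43, of Lamtor2/Ubqln4 5.62 and 6.12, of Ncor1/Pigl 5.35 and 3.38, and of Pcna/Cds2 4.68 and 5.54. Ncor1 is a nuclear receptor corepressor, Lamtor2 part of the Ragulator complex at the lysosome and Pcna the sliding clamp of DNA replication. At Dolk/Nup188 (8.93 and 3.33) and Atxn7l3/Gm33851 (5.55 and 4.37) both summits lay to 1 side.

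The genes at the shared peaks were counted by function. Over all 21887 protein-coding genes, 5.55% had an end within 1 kb of a shared summit, and 20.7% an end within 1 kb of any wild-type summit. The lists below were chosen with earlier results of these data known, and no test of a list was made. Close neighbours are a condition for a shared peak, so the share of a list with a neighbour within 2 kb is given too. Over all genes it was 32.2%, and 17.2% of these had a shared summit.

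Of the 75 mitochondrial ribosomal protein genes listed, 16 (21.3%) had a shared summit, led within the list by Mrpl48/Rab6a (7.87), Mrps7/Gga3 (6.74) and Mrps23/Cuedc1 (6.55). The list is not complete, and Mrps18b/Ppp1r10 (6.56) also had one. Of 94 genes of the respiratory chain and ATP synthase, 16 (17.0%) had one, with Atp5pb, Atp5a1/Haus1 (8.07) and Atp5c1/Kin (6.93), all of them ATP synthase subunits, in front. Close neighbours were present for 64.0% and 62.8% of these lists, and 33.3% and 27.1% of the genes with a neighbour had a shared summit. Sdha/Ccdc127 (4.93), with the flavoprotein of succinate dehydrogenase, and Uqcr10/Zmat5 (5.71), with a complex III subunit, had values nearer to the median.

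Of 64 spliceosome genes, 12 (18.8%) had a shared summit, with Srsf2/Mfsd11, Sf3b2/Pacs1 (7.05) and Srsf11/Lrrc40 (6.35) highest, and 37.5% of those with a close neighbour had one. Of 58 RNA polymerase and Mediator genes, 10 (17.2%) had one, with Polr1c/Yipf3 (7.18), Polr1d/Lnx2 (6.86) and Polr2b/Noa1 (6.85) highest. Of 85 cytosolic ribosomal protein genes, 11 (12.9%) had one, led by Rpl12, Rpl7/Rdh10 (7.52) and Rplp2/Pidd1 (6.65). Of 37 aminoacyl-tRNA synthetase genes, 5 (13.5%) had one, with Ears2/Ubfd1 (6.48), Wars/Wdr25 (6.12) and Vars/D17H6S56E-5 (5.90) highest. Close neighbours were present for 70.7% of the polymerase and Mediator genes, 51.8% of the cytosolic ribosomal protein genes and 51.4% of the synthetase genes, and 24.4%, 25% and 26.3% of those had a shared summit.

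Of 77 genes of DNA repair and replication, 14 (18.2%) had a shared summit, among them Rad51d/Rffl (7.22) and Pole/Pxmp2 (5.58). This list also had a close neighbour in 67.5%, and 26.9% of those genes had a shared summit. Of 44 genes of the unfolded protein response and chaperones, 7 (15.9%) had one, with the chaperonin subunits Cct7/Pradc1 (5.58) and Cct5/Atpsckmt (5.02) and the disulfide isomerase Pdia3/Catsper2 (4.99) highest. Proteasome genes were nearer to the background with 3 of 43 (6.98%): Psma7/Ss18l1 (6.48), Psma4 and Psmb9/Tap1 (5.15). Of 31 histone genes, H2ax/Dpagt1 (6.93) and H1f0/Gcat (5.38) had one (6.45%). With a close neighbour were 56.8% of the chaperone list, 46.5% of proteasome genes and 70.97% of histone genes, and of those 28%, 15% and 9.09% had a shared summit.

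For the genes of lipid handling and lipophagy, the subject of the series, shared peaks were an uneven set. Fatty acid oxidation and ketogenesis had 6 of 44 genes (13.6%), and held the only pair with both genes in the same list, Hadha/Hadhb (7.64), the alpha and beta subunits of the mitochondrial trifunctional protein. Lipid absorption, lipolysis and sterol synthesis had 2 of 60 genes (3.33%): Lpin1/Ntsr2 (6.66), with a phosphatidate phosphatase, and Mvk/Mmab (5.48), with mevalonate kinase. Close neighbours were present for 45.5% and 43.3% of these lists, and 30% and 7.69% of those genes had a shared summit. Autophagy had 3 of 59 genes (5.08%): Atg4b/Thap4 (6.65), a protease that processes LC3 family proteins, Vps16/Pced1a (5.20), a subunit of the HOPS tethering complex, and Atg12/Ap3s1 (4.90), a ubiquitin-like modifier of the autophagosome. The lysosome list had 3 of 70 genes (4.29%): Tpp1/Taf10 (5.42), a lysosomal peptidase, Atp6v1b2/Slc18a1 (4.75) and Atp6v1a/Naa50 (4.08), both subunits of the proton pump.

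Autophagy and lysosome genes did have summits: 39.0% of autophagy genes and 41.4% of lysosome genes had an end within 1 kb of some wild-type summit, above the 20.7% over all genes. This was not particular to them. The chaperone, cytosolic ribosomal protein, spliceosome and fatty acid oxidation lists were higher, at 63.6%, 49.4%, 48.4% and 45.5%. Only the bile acid, Zfp, cell type marker and receptor gene lists were below 20.7%. Close neighbours were present for 27 autophagy (45.8%) and 33 lysosome genes (47.1%), and 11.1% and 9.09% of those had a shared summit, beside 17.2% over all genes. These shares rest on 3 genes in each list, so no difference from all genes can be read from them. Over the whole lists, the 5.08% and 4.29% were near the 5.55% over all genes. The bile acid and FGF15 axis had 1 of 23 genes, Mafg/Sirt7 (4.68), a small Maf factor that represses bile acid synthesis genes. Of 394 Zfp zinc-finger genes 11 (2.79%) had a shared summit, with Zfp524/Fiz1 (6.40), Zfp653/Ecsit (6.12) and Zfp91/Lpxn (5.83) highest, while 20.1% of them had a close neighbour and 13.9% of those a shared summit.

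Genes that define cell types were nearly absent. None of 33 enterocyte markers, 25 secretory cell markers, 27 immune markers, 26 smooth muscle and stromal markers or 1459 olfactory and vomeronasal receptor genes had a shared summit, and 1 of 28 hepatocyte markers did, Apof/Stat2 (5.94). A close neighbour was present for 7 enterocyte (21.2%), 4 of the 25 secretory, 9 immune (33.3%) and 7 smooth muscle and stromal markers (26.9%). It was present for 4 hepatocyte markers (14.3%) and 22 receptor genes (1.51%), against 32.2% over all genes. Shared peaks were thus possible for a small number of genes in each list, and whether the lists differ from all genes was not tested.

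Pairs known from textbooks as divergent or sharing a promoter were followed singly. Of 19 such pairs, 5 had a shared summit, and among the 15 with a known divergent orientation it was 4, against the 33.1% over all close divergent pairs. Those with a peak included Col4a1/Col4a2 (7.69), type IV collagen chains, Hadha/Hadhb, Surf1/Surf2 (5.76), of the Surfeit cluster, and Psmb9/Tap1, an immunoproteasome subunit beside the peptide transporter of antigen presentation. The Hadha/Hadhb peak had its summit 134 bp from the end of Hadhb and 407 bp from that of Hadha, and the Psmb9/Tap1 summit was 53 bp from Psmb9 and 173 bp from Tap1.

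The mitochondrial chaperonin pair Hspd1/Hspe1 had its nearest summit 24870 bp away. No shared summit was found either for Col4a3/Col4a4, Col4a5/Col4a6, Abcg5/Abcg8, Atm/Npat, Paics/Ppat, Prkdc/Mcm4, Trp53/Wrap53, Serpini1/Pdcd10, Sirt3/Psmd13, Mrps12/Sars2, Hars/Hars2, Brca1/Nbr1 or Ranbp1/Trmt2a. Abcg5/Abcg8 encodes the sterol exporter of the enterocyte, and its nearest summit lay 146208 bp from Abcg5. The space between its annotated starts was -6710 bp, so no summit could lie within 1 kb of both starts.

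Noncoding genes were seldom at the same place. An end of a noncoding gene lay within 1 kb of the summit in 29 of the 624 (4.65%), against 571 of 3420 single-gene peaks (16.7%). In 19 it was a long noncoding RNA, in 8 a miRNA and in 1 each a snoRNA and a tRNA.

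The letters of the promoters were compared over the 300-base RefSeq windows (250 bases before to 50 after a start). A window was used for 668 genes of divergent pairs with a peak. In 499 of these 668 the window start was within 100 bp of the gene start. The windows of a pair often overlap, so the same letters can count for both, and intervals over the 668 windows are too narrow. Median GC content was 65.3% at the divergent pairs with a peak, 65.0% at starts with a single-gene peak, 59.3% at close divergent genes without a summit within 1 kb and 56.3% over all 17492 genes with a window. The ratio of observed to expected CG dinucleotides was 0.880, 0.836, 0.787 and 0.577 in the same order. With the 1037 close divergent pairs ranked by this ratio, 17.8% of the lowest 259 had a shared summit, then 31.7%, 35.9% and, in the highest 260, 46.9%.

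For the letters of nuclear receptors, AAGGTCA was found in 2.99% of the windows of divergent pairs with a peak (20 of 668, 1.84% to 4.59%). The share was 2.60% at single-gene starts, 3.05% at close divergent genes without a summit and 4.06% over all windows. AGGTCA was in 9.58%, against 10.6%, 12.6% and 14.5% in the same order. Of the 85 highest divergent peaks 7 had AAGGTCA, and of the 85 lowest 2. At single-gene starts the counts were 15 of the 667 highest and 20 of the 667 lowest peaks. Of the 53 close divergent pairs with AAGGTCA, 32.1% had a shared summit, against 33.1% of those without. Thoc7/Atxn7 and Fig4/Ak9 (7.83), the latter printed above with the match on the minus strand, were the strongest of 17 peaks with it, and Atp6v1a/Naa50 was among them. A missing match says only that the letters are not in the window.

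The CLEAR-like letters GTCACGTG were in 5.39% of the windows (36 of 668), against 2.86% over all windows, 5.11% at single-gene starts and 4.42% at close divergent genes without a summit. Of 70 close divergent pairs with these letters 38.6% had a shared summit (27.2% to 51.0%), against 32.7% of pairs without, and the intervals overlapped. Dolk/Nup188 was the only such pair among the 10 strongest divergent peaks. Of the 85 highest divergent peaks 2 had these letters, and of the 85 lowest 12. At single-gene starts the counts were 37 of the 667 highest and 36 of the 667 lowest peaks.

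Other promoter letters were compared in the same way. GGGCGG was in 70.2% of the windows against 57.4% at close divergent genes without a summit and 46.3% over all. NRF1 letters were in 15.9% against 13.7% and 6.66%, and ETS letters in 23.7% against 26.0% and 11.9%. The TATA box letters were in 3.59%, against 7.02% and 13.3%. At single-gene starts GGGCGG was in 76.2% of windows (74.5% to 77.8%), beside the 70.2% at divergent pairs with a peak (66.6% to 73.7%). With only the plus-strand gene of each divergent pair, it was in 240 of 334 windows (71.9%, 66.7% to 76.6%). That interval overlaps the one at single-gene starts. A high share of GGGCGG was thus not particular to shared peaks. The shares at single-gene starts were 12.3% for NRF1, 16.03% for ETS and 6.15% for the TATA box letters.

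The palindrome was added to the search after the sequences of the strongest peaks had been read, and it is the self-complementary word of 10 bases found in the most windows of divergent pairs with a peak (36, against 19 for the next). Its counts there are a description and support nothing by themselves. TCTCGCGAGA, a palindrome known as the binding site of BANP and also linked to ZBTB33 (Kaiso), was in 36 of 668 windows (5.39%, 3.80% to 7.38%). It was in 2.06% of windows at single-gene starts, 0.610% at close divergent genes without a summit and 0.726% over all genes. Of 27 close divergent pairs with the palindrome, 22 had a shared summit (81.5%, 61.9% to 93.7%), against 321 of 1010 without it (31.8%, 28.9% to 34.8%). From the lowest to the highest CG ratio the counts were 4 of 4, 5 of 7, 6 of 7 and 7 of 9 pairs. Of the 127 genes with it in the window, 91 (71.7%) had some wild-type summit within 1 kb, beside the 20.7% over all genes. None of the 102 windows of downstream genes at tandem peaks held it, and 2 held its core. The interval of that share reaches 3.55% and includes the 2.06% at single-gene starts.

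The 22 divergent peaks with the palindrome had a median enrichment value of 6.71, against 5.48 in the 321 without, and 4 of the 10 strongest divergent peaks were among them. The palindrome was added after the strongest peaks had been read, so its ties to peak height here support nothing by themselves. At single-gene starts the medians were 6.15 in 55 peaks with it and 5.62 in 2615 without. All of the 27 copies lay inside the peak, and 7 of the 27 between the starts. Styxl1/Mdh2 (6.72), with mitochondrial malate dehydrogenase, had 3 copies, and Atp5pb/Wdr77 had 2. Of the 85 highest divergent peaks 14 had the palindrome, and of the 85 lowest 5, of which Mad1l1/Nudt1 (3.59) was the weakest. At single-gene starts the counts were 23 of the 667 highest and 9 of the 667 lowest peaks.

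The copies of the palindrome lay near the summits. The nearest copy lay a median of 15.5 bp from the summit (interquartile range 6.75 to 26.5 bp) and within 50 bp in 18 of 22 peaks (81.8%). At Ankrd49/Mre11a, with a nuclease of DNA break repair, the distance was 2 bp, at Lrsam1/Rpl12 3 bp, at Tmem209/Ssmem1 4 bp and at Baz2b/Marchf7 5 bp. The farthest were Smc1b/Ribc2 with 301 bp and Dcaf6/Mpc2 with 595 bp.

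The core CTCGCGAG, which the palindrome contains, had a median of 27 bp over 33 peaks, 60.6% of them within 50 bp. For the 11 motifs other than the palindrome and its core, measured in windows whose start lay within 1 kb of the summit, the median distance ran from 97.5 bp for GGGCGG to 344 bp for the TATA box letters. It was 128 bp for NRF1, 209 bp for the CLEAR-like letters and 272 bp for AAGGTCA. Within 50 bp of the summit were 33.8% of peaks with GGGCGG, 18.5% with CLEAR-like letters and 9.09% with AAGGTCA. The single-gene starts, which did not serve to choose the palindrome, gave a median of 27 bp over 55 peaks with it, of which 72.7% were within 50 bp.

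**Figure D5:**
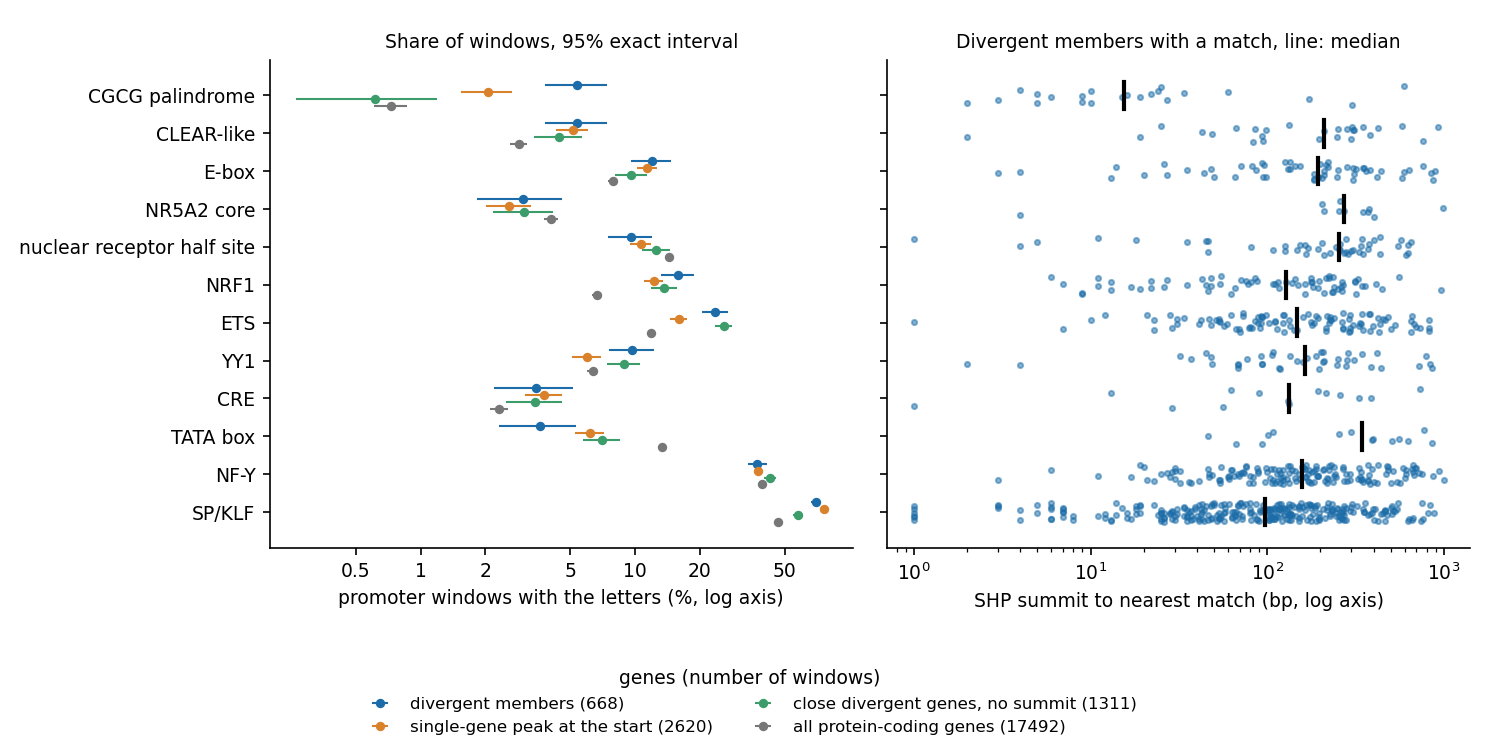
Left, share of 300-base promoter windows with each set of letters (log axis, percent; points with 95% exact intervals) in 4 groups of genes; right, distance in bp from the SHP summit to the nearest match at divergent peaks with a match (log axis, a distance of 0 drawn at 1 bp), with the median as a black line. The CGCG palindrome TCTCGCGAGA has a median of 15.5 bp, and the other 11 sets of letters drawn lie between 97.5 and 344 bp; its core is not drawn.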

How the data were processed

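The authors deposited 1 peak list for each genotype. The submitters' processing notes name CASAVA 1.4, BWA and mm10; which peak caller, control and depth lie behind the lists is not given in the sources used here. The deposited signal (called the enrichment value), −log10 p and −log10 q and score are the authors' values, used only within the wild-type list, whose name gives an irreproducible discovery rate of 0.05. Gene positions came from RefSeq GRCm38.p6 (21887 protein-coding genes on chromosomes 1 to 19, X and Y), and strand and sequence from its promoter windows (17492 genes). Positions were made 1-based. Intervals are exact 95% Clopper-Pearson and cover counting error only. Neighbouring genes share peaks and are not replicates, so no test was run.

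The members and lists were chosen with earlier results of these data known. Named were the 15 highest peaks, up to 3 in each orientation class and list, textbook pairs, peaks at 3 genes, and peaks at the distance limit; twin peaks, peaks with given letters and a few others were named after their values were seen. Letters were searched as exact matches on both strands. The counting of ends was tested on simulated positions. The input samples were not analysed here, and a few named genes are not reported here. Python 3.11.15, pandas 2.3.3, numpy 2.4.6, scipy 1.17.1 and matplotlib 3.10.9 were used.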

Additional observations from a re-analysis of the deposited data

How the results depend on the processing

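Each of 10 results was recomputed under 5 alternatives, and 29 of the 50 values stayed within the original interval or within 1.5 times the count. Divergent pairs shared a summit most often and convergent pairs least often under all 5, and no knockout peak overlapped a shared peak under any. The share of wild-type peaks was 7.45% within 500 bp of the ends, 14.9957% within 2 kb, 11.9% of peaks at or above the list's median −log10 p, 7.43% where the peak itself had to cover both ends, and 9.78% without genes of predicted symbols. The divergent share was 80.9% within 500 bp, 62.5% within 2 kb and 88.2% by peak extent. Close divergent pairs with a shared summit were 29.1% within 500 bp, 18.9% with the stronger peaks and 28.1% by extent. Tandem pairs were 6.51% with the stronger peaks and 3.91% by extent. Convergent pairs were 0.274% within 500 bp, 4.08% within 2 kb, 0.566% with the stronger peaks and 0.283% by extent. Restricting the list to the stronger peaks left 348 shared peaks with a median enrichment value of 6.14 and a median −log10 p of 17.4, both raised by the restriction itself. With the same pairs and fewer peaks, the shares of close pairs can only fall. A narrower or wider distance limit can only lower or raise the share of wild-type peaks. By extent the median width was 1130 bp, and the need to cover both ends favours wide peaks by construction. The cause was not tested for the other changes.

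No paired analysis was possible because each genotype had a single list, without lists of the separate sets of mice. Strand was known for 17492 of 21887 genes, so 146 peaks have no orientation. Read depth is unknown, and gene starts are those of the annotation, which need not be the ones used in intestine. Knockout and wild-type lists were filtered differently, so the absence of overlap does not measure a difference in binding.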
